A study of Mus musculus with 12 samples.

Results

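Homeobox genes of the 4 Hox clusters were examined by cluster and by position in R1 mouse embryonic stem cells (ESCs) carrying a knockdown of Smarcd1 or a scrambled control, before and after retinoic acid (RA). Members were taken by symbol from a list of 38 mouse Hox genes, and 37 of them had an array probe set that names 1 gene only. These were 10 genes of cluster A on chromosome 6, 9 of cluster B on chromosome 11, 9 of cluster C on chromosome 15 and 9 of cluster D on chromosome 2, among 19938 genes measured in the same way. Hoxb8 shares its probe set with Hoxb7 and was given no value.

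Total RNA was hybridised to 12 Affymetrix mouse gene arrays, 1 per sample, in 5 groups. Undifferentiated ESCs, grown with leukemia inhibitory factor (LIF), gave 2 scrambled arrays, 2 arrays of the line KD1 and 2 of the line KD2. Cells in 1 µM RA without LIF, labelled as differentiated for 4 days, gave 2 scrambled arrays and 4 KD1 arrays. All groups share the R1 background, infection with a control or knockdown construct, and a feeder layer of mitomycin-treated mouse embryonic fibroblasts (MEFs) that adds its own RNA. The labels speak of clones and of biological replicates but name no separate cultures, so a p-value here rests on array-to-array spread that may be technical in part. KD1 was the only knockdown line among the RA arrays, so an effect of Smarcd1 cannot be told apart from other traits of that line.

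Hox genes encode transcription factors that give cells of the embryo their position along the head to tail axis. Within each cluster the genes lie in the order in which they act, with low paralog numbers at the 3′ end serving the hindbrain and high numbers at the 5′ end serving the trunk, tail and limbs. Clusters are held silent in ESCs by polycomb repression, and RA opens them from the 3′ end through its nuclear receptors, while BAF complexes, of which the Smarcd1 product BAF60a is a subunit, remodel nucleosomes. Here paralog numbers 1 to 4 are called anterior, 5 to 8 central and 9 to 13 posterior.

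Smarcd1 itself read 8.67 and 8.68 in scrambled ESCs, 7.75 and 7.78 in KD1 ESCs, 8.84 and 8.64 in scrambled cells after RA and 6.36, 6.61, 6.50 and 6.44 in KD1 cells after RA, on the deposited log2 scale. After RA it was lower in KD1, with a log2 difference of -2.26 ± 0.28 (SE, limma adjusted p = 0.000291). In undifferentiated cells its differences from scrambled, -0.91 ± 0.33 in KD1 (adjusted p = 0.291) and -0.81 ± 0.33 in KD2 (adjusted p = 0.192), did not pass. In KD2 ESCs it read 7.16 on replicate 2 but 8.56 on the array labelled replicate 1, which lies near scrambled ESCs and goes against the label. When arrays were weighted by their scatter, each KD2 array received 0.205 and every other array between 1.13 and 1.61. Medians over all probe sets lay between 4.73 and 5.09 on the arrays, whose small number sets the precision.

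Most Hox genes were dim in ESCs, 25 of 37 rose with RA in scrambled cells and 15 in KD1 cells, and the rise was smaller in KD1 for 13 by the test of the difference. As a reading aid, the dim level of an array is percentile 40 over all named genes, which lay between 4.46 and 4.63. Of the 37 members, 7 lay above it on both scrambled ESC arrays, 8 on both KD1 and 8 on both KD2 ESC arrays, 25 on both scrambled RA arrays and 16 on all 4 KD1 RA arrays. A total of 27 lay above it on 2 or more of the 12 arrays, 2 on 1 array and 8 on none, and all 37 were tested without a filter. The mean of the 37 was 4.11 to 4.27 over the 6 ESC arrays, 5.53 and 5.48 on the scrambled RA arrays and 4.84, 4.57, 4.71 and 4.85 on the KD1 RA arrays. In bulk RNA, fewer cells that use a gene and less RNA per cell cannot be told apart.

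In scrambled cells 25 of 37 members were higher after RA and 0 lower at an adjusted p under 0.05, against 14.6% of all genes higher and 11.3% lower (25.9% in either direction). The median change of the members was 1.27, against 0.01 over all genes. In KD1 cells 15 were higher and 0 lower, with 19.0% of all genes higher and 15.1% lower (34.1% in either direction), and the median was 0.41 against -0.02. After RA, KD1 cells had 20 members lower and 2 higher than scrambled cells, where 7.78% of all genes were lower and 7.20% higher (15.0% in either direction), and the median was -0.73 against -0.01. The difference between the RA changes of the lines, which is the test of blunting itself, passed for 14 members, 13 of them with the smaller rise in KD1 and 1, Hoxc13, with the larger. In that test 2.33% of all genes were lower and 2.65% higher (4.98% in either direction), and the medians were -0.80 and -0.02. These comparisons share arrays, so their counts are not independent of each other.

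The count of 14 moved more with single arrays than the other counts after RA did. It was 8 without scrambled ESC replicate 1, 6 and 8 without KD1 ESC replicates 1 and 2, and 9 without either scrambled RA array, while it was 18 without either KD2 array, whose spread enters the shared error. Hoxb2, Hoxb5, Hoxc5, Hoxd1 and Hoxd4 passed it in all 26 alternative settings run. The call was lost in 19 of the 26 for Hoxb1, 16 for Hoxc6, 10 each for Hoxd3 and Hoxc13, 7 each for Hoxb4 and Hoxb6, 5 for Hoxc8, 3 for Hoxb3 and 1 for Hoxc9, with the direction kept.

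**Figure D1:**
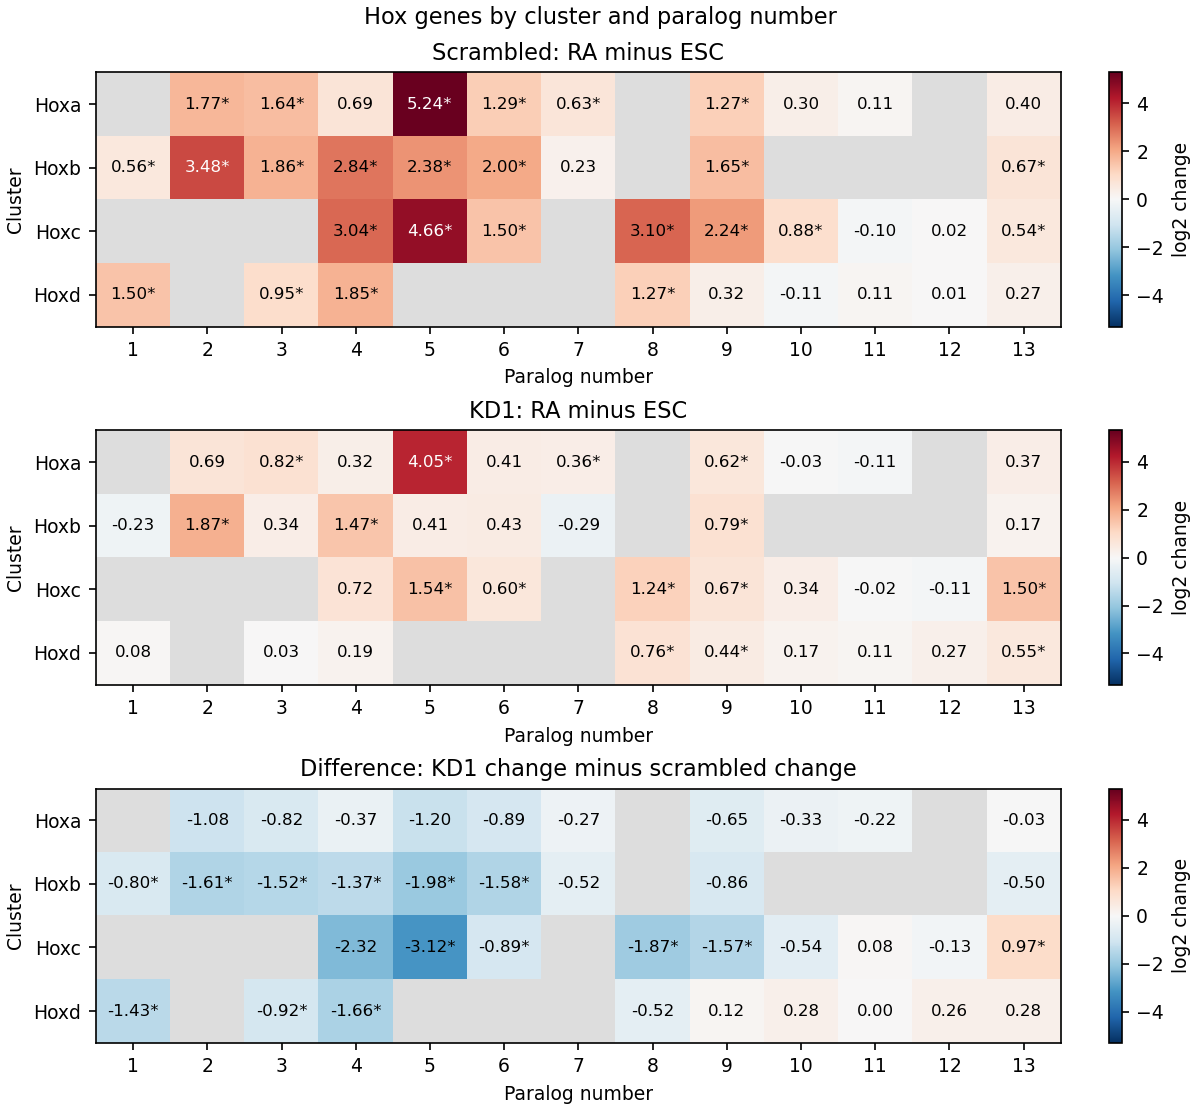
Log2 change with RA in scrambled cells (top), in KD1 cells (middle) and their difference (bottom), with cluster on the vertical axis and paralog number on the horizontal; stars mark a limma adjusted p under 0.05 and grey squares positions with no measured member. The stars of the top grid fill 19 of 21 anterior and central positions and 6 of 16 posterior ones.

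In scrambled cells 10 of 11 anterior genes (median change 1.77), 9 of 10 central genes (1.75) and 6 of 16 posterior genes (0.31) were higher after RA. In KD1 cells the counts were 3, 6 and 6, with medians of 0.34, 0.51 and 0.30. The difference between the lines passed with a smaller rise in KD1 for 7 anterior, 5 central and 1 posterior gene. By cluster, 6 of 10 genes of A, 8 of 9 of B, 7 of 9 of C and 4 of 9 of D were higher in scrambled cells, and 5 of the 9 measured genes of D are posterior, of which 0 passed. Differences between classes and between clusters were not tested.

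Among the anterior genes, Hoxb1 and Hoxd1 belong to the first paralog group, which acts in the hindbrain and answers RA early. Hoxd1 read 5.60 and 5.29 in scrambled RA cells and 4.13, 4.18, 3.96 and 4.21 in KD1 RA cells, against 3.95 and 3.92 in scrambled, 4.18 and 3.90 in KD1 and 3.98 and 4.18 in KD2 ESCs. Only the scrambled RA arrays stood high, and the 4 KD1 RA arrays overlapped the ESC arrays. It rose by 1.50 ± 0.15 in scrambled cells (adjusted p = 4.47e-05) and changed by 0.08 ± 0.13 in KD1 cells, a difference of -1.43 ± 0.20 (adjusted p = 0.00253). Hoxb1, above the dim level on all 12 arrays, read 5.33 and 5.27 in scrambled, 5.58 and 5.58 in KD1 and 5.66 and 5.40 in KD2 ESCs, 5.90 and 5.82 in scrambled RA cells and 5.43, 5.07, 5.43 and 5.45 in KD1 RA cells. Scrambled RA arrays were the highest and all 4 KD1 RA arrays lay below the KD1 ESC arrays. Its change was 0.56 ± 0.15 in scrambled and -0.23 ± 0.13 in KD1 cells (adjusted p = 0.208), a difference of -0.80 ± 0.20 (adjusted p = 0.0466). That call was lost in 19 of 26 alternatives, including all 3 scalings, with adjusted p-values up to 0.155.

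Hoxb2, a hindbrain gene needed for facial motor neurons, had the largest change among the anterior genes in scrambled cells. It read 4.23 and 4.38 in scrambled, 3.96 and 4.00 in KD1 and 4.26 and 4.57 in KD2 ESCs, 7.85 and 7.72 in scrambled RA and 5.67, 5.68, 5.88 and 6.19 in KD1 RA cells. The RA groups overlapped neither each other nor the ESCs. The rise was 3.48 ± 0.18 in scrambled cells, or 11.2-fold, and 1.87 ± 0.16 in KD1 cells, or 3.66-fold, and the difference of -1.61 ± 0.24 passed (adjusted p = 0.00325). Hoxa2, which patterns the second branchial arch, read 3.44 and 3.46 in scrambled, 3.43 and 3.54 in KD1 and 3.54 and 3.66 in KD2 ESCs, 5.82 and 4.62 in scrambled RA and 4.34, 4.09, 4.20 and 4.06 in KD1 RA cells. The scrambled RA arrays differed by more than 1 unit, and the gene was lower in KD1 after RA (-1.04 ± 0.25, adjusted p = 0.015) while the difference of rises did not pass (-1.08 ± 0.38, adjusted p = 0.159).

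Paralogs numbered 3 act in the caudal hindbrain and pharyngeal region. Hoxa3 read 3.54 and 3.26 in scrambled, 3.56 and 3.34 in KD1 and 3.48 and 3.26 in KD2 ESCs, 5.08 and 4.99 in scrambled RA and 4.54, 4.00, 4.20 and 4.32 in KD1 RA cells. Hoxb3 read 4.88 and 5.29 in scrambled, 5.31 and 5.13 in KD1 and 5.15 and 5.28 in KD2 ESCs, 6.92 and 6.97 in scrambled RA and 5.59, 5.24, 5.46 and 5.93 in KD1 RA cells. Hoxd3 read 4.60 and 4.53 in scrambled, 4.56 and 4.69 in KD1 and 4.74 and 4.63 in KD2 ESCs, 5.52 and 5.49 in scrambled RA and 4.69, 4.53, 4.48 and 4.89 in KD1 RA cells. For each gene both scrambled RA arrays exceeded all 4 KD1 RA arrays, and for Hoxb3 and Hoxd3 the KD1 RA arrays overlapped the KD1 ESC arrays. Hoxa3 rose by 1.64 ± 0.18 and 0.82 ± 0.16 in scrambled and KD1 cells (difference -0.82 ± 0.24, adjusted p = 0.0847). Hoxb3 rose by 1.86 ± 0.21 in scrambled cells and changed by 0.34 ± 0.18 in KD1 cells (difference -1.52 ± 0.28, adjusted p = 0.0102). For Hoxd3 the values were 0.95 ± 0.15 and 0.03 ± 0.13 (difference -0.92 ± 0.19, adjusted p = 0.0197).

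The fourth group is represented in all 4 clusters. Hoxb4 read 4.47 and 3.92 in scrambled, 4.23 and 4.45 in KD1 and 4.65 and 4.43 in KD2 ESCs, 6.99 and 7.06 in scrambled RA and 5.91, 5.41, 5.85 and 6.04 in KD1 RA cells. Hoxc4 read 4.38 and 4.51 in scrambled, 4.60 and 4.71 in KD1 and 4.37 and 4.82 in KD2 ESCs, 8.59 and 6.39 in scrambled RA and 5.80, 5.19, 5.44 and 5.10 in KD1 RA cells. Hoxd4 read 3.72 and 3.86 in scrambled, 3.98 and 3.84 in KD1 and 3.98 and 3.94 in KD2 ESCs, 5.70 and 5.57 in scrambled RA and 4.36, 3.93, 4.14 and 4.00 in KD1 RA cells. All 3 genes separated the RA groups without overlap, but the scrambled RA arrays of Hoxc4 lay over 2 units apart. Their rises in scrambled cells were 2.84 ± 0.22, 3.04 ± 0.52 and 1.85 ± 0.15, against 1.47 ± 0.19, 0.72 ± 0.45 and 0.19 ± 0.13 in KD1 cells, of which only that of Hoxb4 passed. The difference passed for Hoxb4 (-1.37 ± 0.29, adjusted p = 0.0224) and Hoxd4 (-1.66 ± 0.20, adjusted p = 0.000897) and not for Hoxc4 (-2.32 ± 0.69, adjusted p = 0.0889). Hoxa4 changed by 0.69 ± 0.25 in scrambled cells (adjusted p = 0.0688) and was the 1 anterior gene that did not pass there.

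The stretches upstream of the fourth paralogs are shown because 3 of these genes rose and each of the 3 windows holds the nuclear receptor motif AGGTCA. RefSeq promoter windows on GRCm38.p6, from 250 bases before to 50 after a start, were matched for 21 members (23 windows), and Hoxa4 was not among them. Cluster B was represented only by Hoxb1 and Hoxb4 and cluster C only by Hoxc4. The letters AGGTCA stood on either strand in 7 of 23 Hox windows (30.4%), against 16.3% of all 32851 windows. They stood in 6 of 13 windows of members that rose in scrambled cells (Hoxa5, Hoxb4, Hoxc4, Hoxd3, Hoxd4 and Hoxd8) and in 1 of 10 windows of the others, that of Hoxd10, which is printed as the contrast. All 10 windows of the others belong to posterior genes of clusters A and D. A rise with RA therefore cannot be told apart from position and cluster in these counts or in the base composition below. AGTTCA stood in 2 Hox windows (14% of all) and GGGTCA in 1 (13.7% of all). Pairs of any of these 3 motifs in the same direction, spaced by 1, 2 or 5 bases, stood in 0 Hox windows and in 0.195%, 0.0883% and 0.0731% of all. Below are the 250 bases before the start, 5′ to 3′ on the plus strand, which is the strand of all 4 genes. Capitals mark TGACCT, which is AGGTCA on the opposite strand. Its first base lies 81 bases before the start in Hoxb4, 146 in Hoxc4, 145 in Hoxd4 and 69 in Hoxd10.
Hoxb4, chr11:96318017-96318266: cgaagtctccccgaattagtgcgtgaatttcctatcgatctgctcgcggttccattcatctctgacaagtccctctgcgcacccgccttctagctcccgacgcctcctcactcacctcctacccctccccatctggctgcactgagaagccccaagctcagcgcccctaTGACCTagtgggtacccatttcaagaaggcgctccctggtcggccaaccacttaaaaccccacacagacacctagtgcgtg
Hoxc4, chr15:103034145-103034394: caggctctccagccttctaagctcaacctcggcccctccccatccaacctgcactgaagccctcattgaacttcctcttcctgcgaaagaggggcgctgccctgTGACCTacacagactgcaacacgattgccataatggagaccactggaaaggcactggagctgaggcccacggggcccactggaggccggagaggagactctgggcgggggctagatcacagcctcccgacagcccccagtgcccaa
Hoxd4, chr2:74721728-74721977: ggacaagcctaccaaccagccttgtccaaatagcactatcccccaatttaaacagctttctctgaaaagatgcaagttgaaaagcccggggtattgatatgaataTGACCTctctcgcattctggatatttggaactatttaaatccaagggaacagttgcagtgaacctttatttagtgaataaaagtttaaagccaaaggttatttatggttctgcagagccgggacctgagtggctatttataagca
Hoxd10, chr2:74691641-74691890: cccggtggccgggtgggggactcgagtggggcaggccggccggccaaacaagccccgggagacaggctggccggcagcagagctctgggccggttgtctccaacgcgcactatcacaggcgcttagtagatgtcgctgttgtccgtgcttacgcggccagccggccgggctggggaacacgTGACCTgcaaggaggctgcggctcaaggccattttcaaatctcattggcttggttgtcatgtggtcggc
A match of 6 letters is a description of the sequence and not a binding site. The windows of the rising members held a median of 10 CpG dinucleotides, those of the others 20.5 and all windows 7, while their median GC contents were 58.0%, 59.65% and 52.7%.

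Central genes pattern the neck and thorax, and Hoxa5 and Hoxc5 had the largest changes of all members in scrambled cells. Hoxc5 read 3.61 and 3.72 in scrambled, 3.87 and 3.76 in KD1 and 4.30 and 4.07 in KD2 ESCs, 8.65 and 8.0 in scrambled RA and 5.80, 4.93, 5.10 and 5.57 in KD1 RA cells. Every KD1 RA array stood above every ESC array and more than 2 units below both scrambled RA arrays. The rise of 4.66 ± 0.28, or 25.3-fold, in scrambled cells compared with 1.54 ± 0.24, or 2.9-fold, in KD1 cells. The difference of -3.12 ± 0.37 was the largest among the members (adjusted p = 0.000778). Hoxb5 read 4.09 and 3.90 in scrambled, 4.05 and 3.96 in KD1 and 3.93 and 3.97 in KD2 ESCs, 6.46 and 6.30 in scrambled RA and 4.78, 4.04, 4.28 and 4.55 in KD1 RA cells. Its KD1 RA arrays overlapped the ESCs, and the rise of 2.38 ± 0.21 in scrambled cells met 0.41 ± 0.18 in KD1 cells (adjusted p = 0.105), a difference of -1.98 ± 0.27 (adjusted p = 0.00207).

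Hoxa5, needed for lung and skeletal patterning, was the member with the largest rise in both lines. It read 4.30 and 3.68 in scrambled, 4.24 and 3.85 in KD1 and 4.22 and 4.37 in KD2 ESCs, 9.23 and 9.24 in scrambled RA and 8.36, 7.16, 8.21 and 8.66 in KD1 RA cells. KD1 replicate 2 was the lowest RA array, and the 2 RA groups did not overlap. Hoxa5 rose by 5.24 ± 0.39 in scrambled and 4.05 ± 0.34 in KD1 cells and was lower in KD1 after RA, with a difference of -1.14 ± 0.34 (adjusted p = 0.0455). That call was lost in 11 of 26 alternatives, with adjusted p-values up to 0.215. The difference of rises was -1.20 ± 0.52, with a 95% interval of -2.34 to -0.05 before adjustment and an adjusted p of 0.277, so it did not pass.

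Sixth paralogs take part in patterning of the thoracic skeleton. Hoxa6 read 3.79 and 3.74 in scrambled, 3.93 and 3.91 in KD1 and 4.21 and 4.07 in KD2 ESCs, 4.80 and 5.33 in scrambled RA and 4.23, 4.14, 4.42 and 4.52 in KD1 RA cells. Hoxb6 read 4.39 and 4.70 in scrambled, 4.67 and 4.75 in KD1 and 4.86 and 4.77 in KD2 ESCs, 6.92 and 6.18 in scrambled RA and 5.19, 4.93, 5.0 and 5.43 in KD1 RA cells. Hoxc6, a gene of forelimb and thorax, read 3.82 and 4.12 in scrambled, 3.72 and 3.91 in KD1 and 3.79 and 4.01 in KD2 ESCs, 5.37 and 5.57 in scrambled RA and 4.42, 4.23, 4.60 and 4.43 in KD1 RA cells. In each, both scrambled RA arrays stood above all KD1 RA arrays, and those above the KD1 ESC arrays. In scrambled cells the rises were 1.29 ± 0.18, 2.00 ± 0.23 and 1.50 ± 0.16 for Hoxa6, Hoxb6 and Hoxc6, and in KD1 cells the changes were 0.41 ± 0.16, 0.43 ± 0.20 and 0.60 ± 0.14, with that of Hoxc6 past the threshold. The difference passed for Hoxb6 (-1.58 ± 0.31, adjusted p = 0.0146) and Hoxc6 (-0.89 ± 0.21, adjusted p = 0.0371), and for Hoxa6 it was -0.89 ± 0.24 (adjusted p = 0.0614). The call of Hoxc6 was lost in 16 of 26 alternatives, including all 3 scalings, with adjusted p-values up to 0.165.

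Hoxc8, which acts in thoracic skeleton and motor neurons, read 4.34 and 4.91 in scrambled, 4.66 and 4.44 in KD1 and 3.99 and 4.57 in KD2 ESCs, 7.52 and 7.93 in scrambled RA and 5.94, 5.50, 5.57 and 6.14 in KD1 RA cells. It rose by 3.10 ± 0.28 in scrambled and 1.24 ± 0.24 in KD1 cells, with no overlap of the RA groups and a difference of -1.87 ± 0.37 (adjusted p = 0.0147). Hoxd8 read 3.54 and 3.45 in scrambled, 3.55 and 3.17 in KD1 and 3.72 and 3.75 in KD2 ESCs, 4.85 and 4.69 in scrambled RA and 4.67, 4.15, 3.79 and 3.88 in KD1 RA cells. KD1 replicate 1 lay just below the scrambled RA arrays, and the other 3 were lower. Its rises of 1.27 ± 0.25 and 0.76 ± 0.22 both passed and their difference did not (-0.52 ± 0.33, adjusted p = 0.513). Of the seventh paralogs, Hoxa7 rose by 0.63 ± 0.14 and 0.36 ± 0.12 in the lines, and Hoxb7 changed by 0.23 ± 0.14 and -0.29 ± 0.12 without passing in either.

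**Figure D2:**
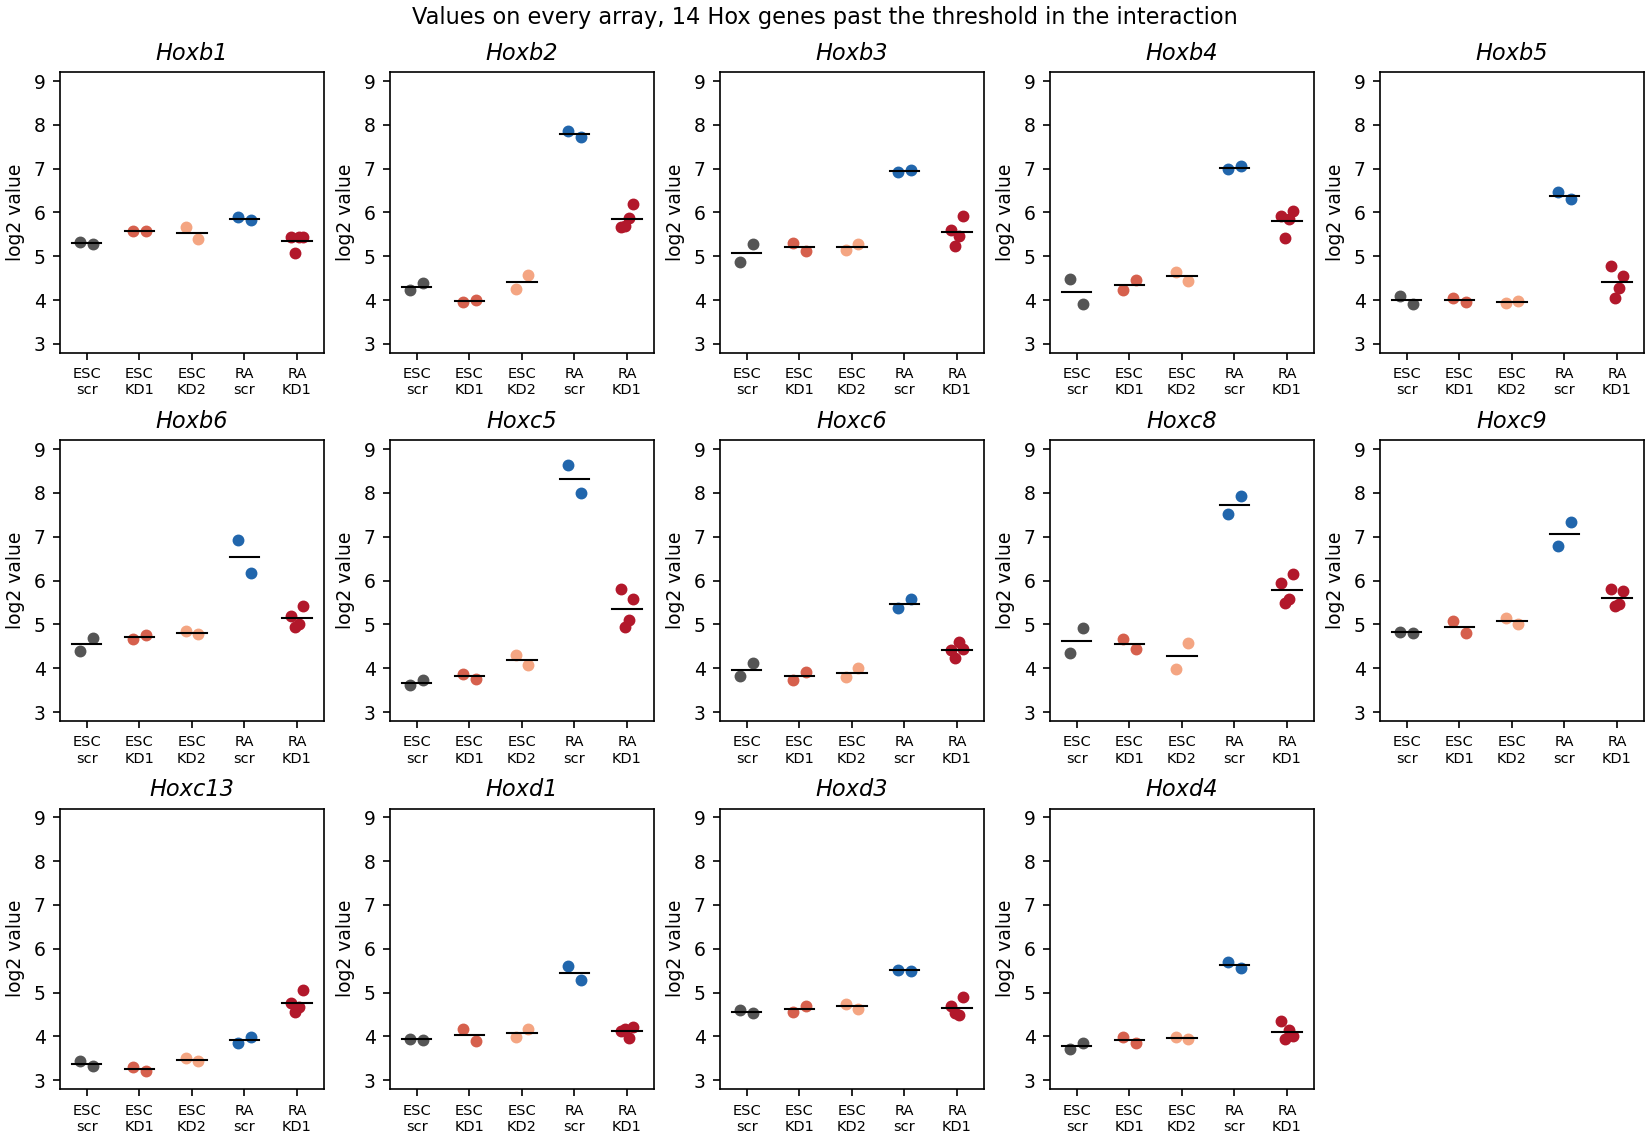
Log2 value on every array (points, with the group mean as a line) for the 14 Hox genes whose RA change differed between KD1 and scrambled cells; groups stand on the horizontal axis and all panels share 1 vertical scale. In 13 panels both scrambled RA arrays lie above all 4 KD1 RA arrays, and in the panel of Hoxc13 they lie below.

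Posterior genes pattern the lower trunk, limbs and tail, and 3 of 4 ninth paralogs but 3 of 12 genes with paralog numbers 10 to 13 rose in scrambled cells. Hoxc9 read 4.83 and 4.81 in scrambled, 5.08 and 4.80 in KD1 and 5.15 and 5.02 in KD2 ESCs, 6.79 and 7.33 in scrambled RA and 5.81, 5.41, 5.46 and 5.77 in KD1 RA cells. Its rises of 2.24 ± 0.20 and 0.67 ± 0.17 differed by -1.57 ± 0.27 (adjusted p = 0.00693), with no overlap of the RA groups. Hoxa9 read 4.38 and 4.23 in scrambled, 4.24 and 4.02 in KD1 and 4.54 and 4.17 in KD2 ESCs, 5.31 and 5.84 in scrambled RA and 4.69, 4.52, 4.80 and 5.01 in KD1 RA cells. Hoxb9 read 5.73 and 5.86 in scrambled, 5.90 and 5.86 in KD1 and 6.22 and 5.87 in KD2 ESCs, 7.18 and 7.73 in scrambled RA and 6.80, 6.54, 6.47 and 6.88 in KD1 RA cells. Both rose in both lines, Hoxa9 by 1.27 ± 0.21 and 0.62 ± 0.18 and Hoxb9 by 1.65 ± 0.20 and 0.79 ± 0.18. They were lower in KD1 after RA, with differences of -0.82 ± 0.18 and -0.78 ± 0.18, and the differences of rises, -0.65 ± 0.28 and -0.86 ± 0.27, did not pass. Hoxd9 rose in KD1 cells by 0.44 ± 0.11 (adjusted p = 0.011) and changed by 0.32 ± 0.13 in scrambled cells, a difference of 0.12 ± 0.17 that did not pass.

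Hoxc13, known for its part in hair and nail formation, was the 1 member whose rise was larger in KD1 cells by the test of the difference. It read 3.43 and 3.32 in scrambled, 3.30 and 3.22 in KD1 and 3.51 and 3.43 in KD2 ESCs, 3.85 and 3.98 in scrambled RA and 4.77, 4.55, 4.66 and 5.06 in KD1 RA cells. All 4 KD1 RA arrays exceeded both scrambled RA arrays, which stayed below the dim level. It rose by 0.54 ± 0.16 in scrambled and 1.50 ± 0.14 in KD1 cells, a difference of 0.97 ± 0.21 (adjusted p = 0.0256). Hoxd13, a limb and genital gene, read 3.89 and 3.99 in scrambled, 4.21 and 4.16 in KD1 and 4.31 and 4.66 in KD2 ESCs, 4.08 and 4.34 in scrambled RA and 4.50, 4.72, 4.79 and 4.93 in KD1 RA cells. After RA it was higher in KD1 by 0.53 ± 0.15 (adjusted p = 0.0318), and the KD1 arrays lay above the scrambled ones both before and after RA. That call was lost in 11 of 26 alternatives, with adjusted p-values up to 0.296. With RA it rose in KD1 cells by 0.55 ± 0.15 (adjusted p = 0.0125), while the change of 0.27 ± 0.17 in scrambled cells did not pass (adjusted p = 0.305). Its difference of rises, 0.28 ± 0.22, did not pass (adjusted p = 0.632). Hoxc10 and Hoxb13 rose in scrambled cells by 0.88 ± 0.23 and 0.67 ± 0.21 with 1 and 0 arrays of all 12 above the dim level, and their changes in KD1 cells, 0.34 ± 0.20 and 0.17 ± 0.18, did not pass. The other posterior genes, Hoxa10, Hoxa11, Hoxa13, Hoxc11, Hoxc12, Hoxd10, Hoxd11 and Hoxd12, passed in no comparison. Their group means lay between 3.13 and 4.33, under the dim level.

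**Figure D3:**
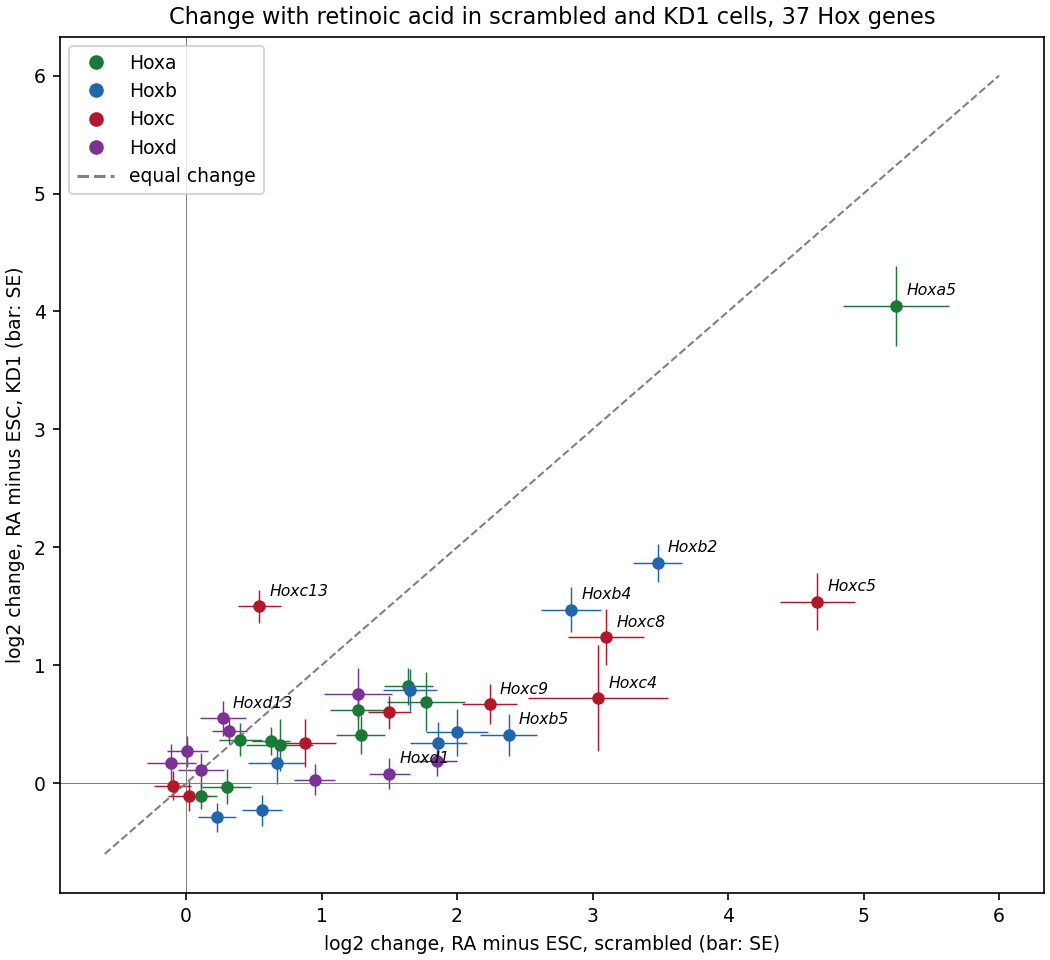
Change with RA in KD1 cells (vertical) against the change in scrambled cells (horizontal), both log2 with SE bars, for the 37 Hox genes coloured by cluster; the dashed line marks equal change. Of the 25 genes that rose in scrambled cells 24 lie below the line, and Hoxc13 lies above it. These 25 were chosen by the change on the horizontal axis, which favours a place below the line.

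Of the 25 members that rose in scrambled cells, 24 had a smaller change in KD1 cells and 13 also rose there. Of the same 25, 20 were lower in KD1 after RA and 13 passed the test of the difference with a smaller rise. The 25 were chosen by their scrambled arrays, which these counts use again, so the counts lean toward a smaller change in KD1. Over all 37 members the tested difference was below 0 for 31 and above 0 for 6. The members of clusters A, B, C and D that passed that test with a smaller rise numbered 0, 6, 4 and 3. Cluster A genes nevertheless had lower values in KD1 after RA for 5 of 10 members, so that 0 passing differences in A do not show that its rises were equal. The scrambled RA arrays lay wholly above the scrambled ESC arrays for 32 of 37 members (34.2% of all genes) and wholly below for 1 (29.5%). In KD1 cells the RA arrays lay wholly above the ESC arrays for 22 members (29.3% of all genes) and below for 2 (28.5%). After RA the KD1 arrays lay wholly below the scrambled ones for 24 members (21.4% of all genes) and above for 2 (20.1%). Among the KD1 RA arrays replicate 2 was the lowest in 18 of the 25 members and the highest in 0. Its mean over the 25 was 4.79, against 5.18, 4.99 and 5.17 on replicates 1, 3 and 4 and 6.20 and 6.10 on the scrambled arrays. The scrambled means are raised by the choice of the 25. Over all 37 members they were 5.53 and 5.48, against 4.84, 4.57, 4.71 and 4.85 on the KD1 RA arrays. RefSeq spans overlap for 6 pairs of members, namely Hoxa3 with Hoxa4, Hoxa5 and Hoxa6, Hoxb3 with Hoxb4, Hoxd3 with Hoxd4 and Hoxd10 with Hoxd11, so part of their signal may be shared.

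In undifferentiated cells no member passed the threshold between a knockdown line and scrambled cells. For KD1 limma called 0 of 37, with 0 at an unadjusted p under 0.05 and 1.57% of all genes called (0.612% higher and 0.958% lower), and the member changes ran from -0.32 (Hoxb2) to 0.28 (Hoxb1). For KD2 it was also 0, with 6.67% of all genes called (1.96% higher and 4.70% lower), and 2 members had an unadjusted p under 0.05, Hoxd13 at 0.55 ± 0.17 (adjusted p = 0.0849) and Hoxa13 at 0.37 ± 0.16 (adjusted p = 0.23). Without the array labelled KD2 replicate 1 the Hoxd13 change was 0.72, which rests on 1 KD2 array and so carries no spread between KD2 arrays. KD1 arrays lay wholly above scrambled ESC arrays for 7 members and wholly below for 4 (25.0% and 22.3% of all genes), and KD2 arrays for 16 and 2 (22.4% and 17.5%). The median change was 0.06 for KD1 and 0.14 for KD2, against 0.01 and 0.03 over all genes.

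Cofactors of the TALE class bind DNA together with Hox proteins. Of 10 measured, 7 were higher with RA in scrambled cells (14.6% of all genes) and 6 in KD1 cells (19.0%). After RA 4 were lower in KD1 (7.78% of all genes), and 3 passed the difference with a smaller rise in KD1 (2.33%). Meis2 rose by 5.41 ± 0.20 and 3.33 ± 0.17 in scrambled and KD1 cells, with a difference of -2.09 ± 0.26 (adjusted p = 0.00112). Meis1 rose by 5.42 ± 0.16 and 4.27 ± 0.14, a difference of -1.15 ± 0.22 (adjusted p = 0.0123), and Pknox2 differed by -1.12 ± 0.24. Pbx3 was lower in KD1 after RA, with a difference of -1.30 ± 0.19 (adjusted p = 0.000894).

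Of 18 genes for RA metabolism and direct RA targets, 14 were higher and 0 lower with RA in scrambled cells (14.6% and 11.3% of all genes). In KD1 cells 12 were higher and 1 lower (19.0% and 15.1%). After RA 9 were lower in KD1 (7.78% of all genes), and 7 had a lower change in KD1 by the test of the difference (2.33%). Aldh1a2, which makes RA, rose by 4.00 ± 0.28 in scrambled cells and changed by -0.39 ± 0.24 in KD1 cells (difference -4.39 ± 0.37, adjusted p = 9.82e-05). Nr2f1, an orphan receptor gene, differed by -3.14 ± 0.13 between KD1 and scrambled cells after RA, the RA carrier gene Crabp1 by -2.90 ± 0.30 and Nr2f2 by -2.11 ± 0.17. Rarb, a direct target that encodes an RA receptor, rose by 4.57 ± 0.28 in scrambled and 4.95 ± 0.24 in KD1 cells and differed by 0.07 ± 0.24 after RA (adjusted p = 0.925). Cyp26a1, which degrades RA, read 10.54 and 10.32 in scrambled and 12.27, 12, 12.05 and 12.07 in KD1 cells after RA, but 8.90 on 1 scrambled ESC array against 4.39 on the other, and its difference after RA did not pass.

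Other regulators of Hox genes were less uniform. Of 17 upstream activators, 4 were higher and 3 lower with RA in scrambled cells, where 14.6% and 11.3% of all genes were. In KD1 cells 4 were higher and 2 lower, near the 19.0% and 15.1% of all genes. After RA 3 were lower in KD1 (7.78% of all genes): the trunk signal gene Gdf11 (-1.23 ± 0.16) and the receptor genes Rxra (-0.88 ± 0.16) and Rara (-0.50 ± 0.12). The difference between the lines passed as lower in KD1 for 2 and as higher for 0 (2.33% and 2.65% of all genes). They were Rxra (-0.96 ± 0.24, adjusted p = 0.0435) and the receptor gene Rarg (-0.81 ± 0.19, adjusted p = 0.0326). Rarg changed by -1.1 ± 0.12 in KD1 and -0.3 ± 0.14 in scrambled cells. Its difference after RA did not pass (-0.19 ± 0.12, adjusted p = 0.398). The caudal genes Cdx1, Cdx2 and Cdx4, activators of central and posterior Hox genes, passed in none of the 6 comparisons. Of 31 polycomb genes, 11 were higher and 9 lower with RA in each line, against 14.6% and 11.3% of all genes in scrambled and 19.0% and 15.1% in KD1 cells. After RA 2 of the 31 were higher and 4 lower in KD1, where 7.20% and 7.78% of all genes were, so the list's counts there lie near the background. The higher ones were Pcgf5, of a variant of the first polycomb complex, at 2.92 ± 0.26 (adjusted p = 3.18e-05), and Epop at 1.04 ± 0.15. The lower ones were Cbx2 (-1.15 ± 0.13), Mtf2 (-0.65 ± 0.15), Jarid2 (-0.61 ± 0.11) and Phc1 (-0.55 ± 0.14). By the test of the difference 4 of the 31 had a lower and 1 a higher change in KD1, against 2.33% and 2.65% of all genes.

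Among 21 neighbouring and noncoding genes of the clusters, 5 were higher and 1 lower with RA in scrambled cells (14.6% and 11.3% of all genes). In KD1 cells 1 was higher and 3 lower (19.0% and 15.1%), and after RA 4 were lower in KD1 (7.78%). Smug1, a DNA repair gene beside cluster C, read 6.29 and 6.60 in scrambled RA cells, 4.88, 5.02, 4.94 and 4.89 in KD1 RA cells and 4.46 to 5.14 in ESCs, with a rise of 1.85 ± 0.20 in scrambled cells and a change of 0.34 ± 0.17 in KD1 cells that did not pass (adjusted p = 0.162; difference -1.51 ± 0.26, adjusted p = 0.00811). The RA change of the noncoding Hoxaas2 of cluster A differed between the lines by -0.92 ± 0.23 (adjusted p = 0.0445). It read 4.48 and 4.22 in scrambled RA, 3.94, 3.73, 3.46 and 3.53 in KD1 RA and 3.29 to 3.71 in ESCs. These values lie near or under the dim level, and the call was not examined under the alternatives. Cbx1 and Calcoco2, near cluster B, were lower in KD1 after RA, with differences of -0.69 ± 0.10 and -0.95 ± 0.20. Of the probe sets for cluster microRNAs, that of Mir196a-1 rose in scrambled cells (0.99 ± 0.23, adjusted p = 0.00759) and was higher in KD2 than in scrambled ESCs (1.13 ± 0.23, adjusted p = 0.0138). It read 3.29 and 3.02 in scrambled and 4.68 and 3.89 in KD2 ESCs, and 4.05 and 4.23 in scrambled RA cells. Only the array labelled KD2 replicate 1, whose Smarcd1 value goes against its label, stood above the dim level. The probe sets of Mir10a, Mir10b, Mir196a-2, Mir196b and Mir615 passed in none of the 6 comparisons. Of 23 other homeobox regulators of axial position, 3 were higher and 1 lower with RA in scrambled and 3 and 2 in KD1 cells, which is no more than the 14.6% and 11.3%, and 19.0% and 15.1%, of all genes. Otx2, which marks forebrain and midbrain, fell by 4.43 and 3.72 in the lines. After RA 3 of the 23 were lower in KD1 (7.78% of all genes), namely Pax6 (-2.43 ± 0.27), Dbx1 (-0.55 ± 0.14) and Irx3 (-0.49 ± 0.13). Pax6, Rarb and the Cdx genes are each counted in 2 of the lists.

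**Figure D4:**
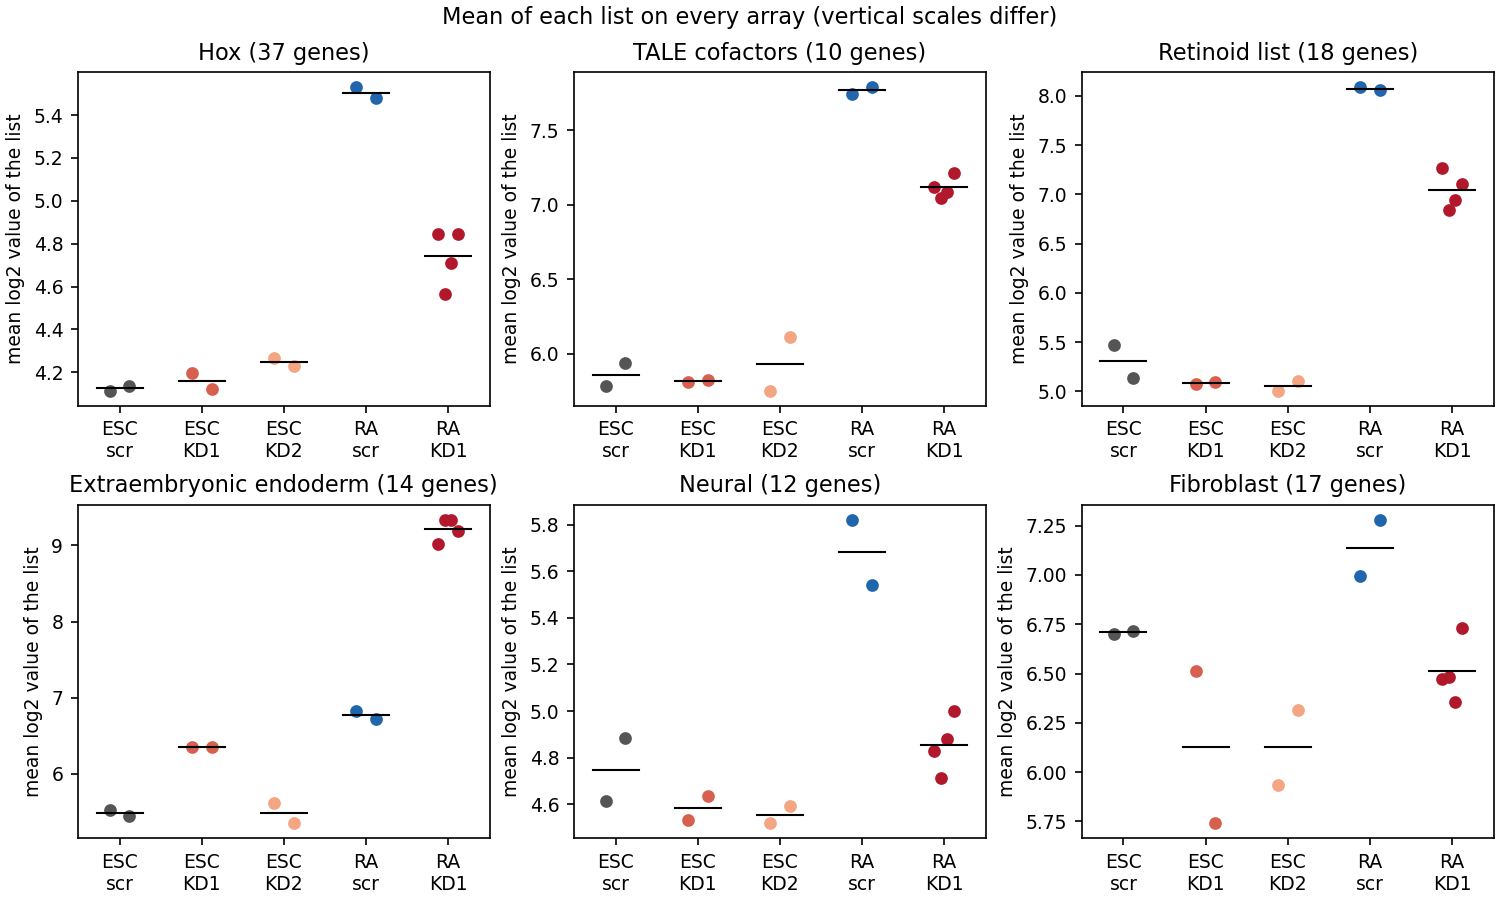
Mean log2 value of the 37 Hox genes and of 5 other lists on every array (points, with the group mean as a line), by group; vertical scales differ between panels. Hox, TALE, retinoid and neural means are higher on both scrambled RA arrays than on all 4 KD1 RA arrays, and the extraembryonic endoderm mean is lower.

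Markers of cell types moved with the RA groups. The share of all genes beside the counts after RA was 7.20% higher and 7.78% lower in KD1. Extraembryonic endoderm, which lines the yolk sac, had 11 of 14 markers higher in KD1 after RA and 0 lower, with list means of 9.01 to 9.34 against 6.72 to 6.83 in scrambled cells. Gata4, a defining factor, was higher by 4.34 ± 0.16 and Sox7 by 4.35 ± 0.42. Already in KD1 ESCs 5 of the 14 markers were higher (0.612% of all genes). Neural markers were lower for 7 of 12 and higher for 0 (4.71 to 5.0 against 5.54 to 5.82), and mesoderm markers lower for 4 of 12 and higher for 1 (4.89 to 4.98 against 5.31 to 5.32), with 5 neural and 4 mesoderm markers under the dim level on all KD1 RA arrays and 2 and 4 on both scrambled RA arrays. Fibroblast markers, of the cell type of the feeders, were lower for 5 of 17 and higher for 1 (6.36 to 6.73 against 6.99 to 7.28). Scrambled ESC arrays had fibroblast means of 6.70 and 6.72, KD1 ESC arrays 5.74 and 6.51 and KD2 ESC arrays 5.94 and 6.32. The fibroblast signal thus differed between the ESC arrays from which the RA changes are counted. In ESCs 1 of the 17 markers was lower and 0 higher in KD1, where 0.958% of all genes were lower. Pluripotency markers had means of 9.48 to 10.66 in ESCs, 6.45 to 6.51 in scrambled RA and 6.23 to 7.15 in KD1 RA cells, and 0 of 10 were under the dim level on all arrays of a group. After RA 3 of the 10 were higher in KD1, Klf4 (3.14 ± 0.32), Dppa4 (1.09 ± 0.16) and Pou5f1 (0.85 ± 0.21), and Sox2 was lower (-1.75 ± 0.39). Nanog read 4.14 and 4.71 on KD1 RA replicates 1 and 2 and 7.14 and 6.94 on replicates 3 and 4, against 7.4 and 7.43 in scrambled RA cells. Tdgf1 read 4.20 and 3.26, 5.89 and 5.48, and 5.64 and 6.10 on the same arrays, so replicates 1 and 2 stood apart from 3 and 4 in both genes. Sox2 read 6.35 and 6.35 on KD1 RA replicates 1 and 2 and 7.84 and 7.7 on 3 and 4. Sox7 read 8.58 and 8.69, and 10.32 and 10.01, so the differences given for Sox2 and Sox7 average over the same split. Whether these markers have a part in the Hox values was not tested.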

How the data were processed

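RNA of 12 samples was measured on Affymetrix mouse gene arrays. The authors deposited 1 log2 value per probe set and array, made with RMA per the submitters' processing notes. RMA's version and settings were not given in the sources used here. Of 35556 probe sets, 21789 had 1 symbol in the platform's gene table, 1621 several, and 12146 were not listed, which gave 19938 genes. Entrez identifiers matched for 21698 of the probe sets and 0 symbols changed. Where a gene had several probe sets, as 999 had, the one with the highest mean was used. Each measured Hox gene had 1.

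The model held 1 mean per group over the 12 arrays and was fitted with limma 3.58.1 (R 4.3.3). It had 7 residual and 3.85 prior degrees of freedom. There were 6 contrasts, each adjusted by Benjamini-Hochberg over all 19938 genes, two-sided, with no filter on dim genes. Changes are given ± SE, and a gene passed at an adjusted p under 0.05. Groups and replicate numbers follow the sample titles. The fit was tested on simulated data.

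Members passing after RA or in differentiation are named, with array values for those passing in KD1 against scrambled after RA or in the difference and for the 3 largest changes of each cluster. Of other lists up to 4 members are named. The members and lists were chosen with earlier results of these data known. Hoxaas2, Hoxd9, Rarb, Cyp26a1, the Cdx genes and the microRNA probe sets are named for their role in addition to that rule. Protein sequences were not used here.

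Same-numbered arrays were checked for pairing. Of 20 correlations of their deviations from group means, -0.178 to 0.198, 3 were above 0.1, so the numbers were not taken to pair arrays. Between groups of 2 arrays the values of replicates 1 and 2 are equal by construction, so the 20 are not separate checks. The 0.198 between scrambled and KD1 ESCs enters for both replicates. Alternatives covered a filter on dim genes, 3 scalings, an intensity trend, array weights, subsets of arrays, probe set handling, stricter thresholds, a replicate block and leaving out each array. Tables and figures used Python 3.11.15, pandas 2.3.3, numpy 2.4.6 and matplotlib 3.10.9.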

Additional observations from a re-analysis of the deposited data

Results flagged for a closer look

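For 14 Hox genes the change with RA differed between KD1 and scrambled cells by the test of the difference itself (limma, adjusted p under 0.05). The rise was smaller in KD1 for Hoxb1 (-0.80), Hoxb2 (-1.61), Hoxb3 (-1.52), Hoxb4 (-1.37), Hoxb5 (-1.98) and Hoxb6 (-1.58), which are 6 of the 9 measured genes of cluster B. It was smaller for Hoxc5 (-3.12), Hoxc6 (-0.89), Hoxc8 (-1.87) and Hoxc9 (-1.57) of cluster C and for Hoxd1 (-1.43), Hoxd3 (-0.92) and Hoxd4 (-1.66) of cluster D. It was larger in KD1 for Hoxc13 (0.97).

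In the 4 KD1 arrays after RA, Hoxb1 read 5.07 on replicate 2 and 5.43 to 5.45 on the others, a gap that exceeded Dixon's critical value for 4 samples. It was 1 of 37 genes tested in this group, and chance gives about 1 in 20.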

How the results depend on the processing

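No member value past the threshold turned its sign: of 1974 values under alternatives, 1770 kept direction and call, 204 kept direction without passing, and 41 of 76 results kept their call in all. The filter on dim genes, the intensity trend, probe set handling and the stricter thresholds leave a member's change as it was. So does leaving out an array outside the comparison. In these settings the kept direction was fixed in advance. An adjusted p under 0.01 left 9 of 15 members higher with RA in KD1 and 6 of 14 differences, and a 2-fold minimum left 6 of 15 with RA in KD1 and 14 of 22 in KD1 against scrambled after RA, since both raise the threshold. With the replicate number as a block, the difference between the lines passed for 6 members in place of 14, and the counts in the other comparisons moved by less than 1.5 times. Leaving out 1 array gave 21 to 27 members with RA in scrambled cells, 10 to 18 in KD1, 16 to 24 for KD1 against scrambled after RA, 6 to 18 for the difference, 0 for KD1 ESCs and 0 to 1 for KD2 ESCs. Where a left-out array leaves 1 in a group, that array is assumed to vary like the other groups. With the filter on dim genes the counts after RA were 23, 16, 22 and 13, and the 3 scalings moved the median of all genes by less than 0.1. With KD1 RA replicates 1 and 2 alone the difference passed for 11 members and with 3 and 4 alone for 10. Small changes near the dim level are limited by signal over background.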
